A study of Mus musculus with 8 samples.

Results

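Malat1, Neat1 and Kcnq1ot1, 3 long noncoding RNAs (lncRNAs) that stay in the nucleus, were followed through the RNA sequencing libraries of early B cells of wild type (WT) and lactoferrin knockout (Lf-/-) mice. They are 3 of the 52550 genes in the deposited tables and were found by their gene symbols. They were chosen by measured values, namely the wide spread of Malat1 between the WT pre-pro-B libraries and its gap between the pro-B libraries, so these 2 patterns are given as a description, with no test.

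The study compared C57BL/6J WT mice with Lf-/- mice of the same strain, untreated in both genotypes, to see how loss of lactoferrin changes gene expression in early B cells. Pre-pro-B cells, an early B lineage stage, and pro-B cells, the stage that follows, were sorted by flow cytometry from bone marrow of Lf-/- mice and littermate controls, whose age in these libraries is not given in the labels. The knockout is present in all cells of the animal, so the labels do not separate loss of lactoferrin in B lineage cells from loss around them. Of the 7 libraries analysed, 4 were of pre-pro-B cells (2 for each genotype) and 3 of pro-B cells (1 WT and 2 Lf-/-), and the second labelled WT sample of pro-B cells was not used here. The labels do not say whether the libraries of a group came from separate animals, so p-values measure only the spread between these libraries.

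Levels are given in FPKM, the number of sequenced fragments per kilobase of transcript and per 1000000 fragments of the library. The depth that could be read from the values was 10800000 to 15300000 fragments in 6 of the libraries and is unknown for Lf-/- pre-pro-B replicate 2, which also stood apart with 12172 genes above 0 against 19477 to 20250 elsewhere. Lactoferrin's own gene, Ltf, was between 2143 and 2731 FPKM in the WT libraries and between 88.2 and 168 FPKM in the Lf-/- libraries, so the genotype labels matched its level. The cell type labels matched the markers in part. All 18 neutrophil granule genes were above 0 in every library and made up 25.4% to 53.1% of the summed FPKM, whereas the 20 early B lineage genes made up 0.0535% to 0.488%, with Rag1, Rag2 and Bank1, which act in receptor gene rearrangement and in signalling by the receptor, each listed at 0 in at least 1 library. In such bulk samples fewer cells of a type and less RNA per cell cannot be told apart.

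Malat1 is among the most abundant lncRNAs of mammalian nuclei and gathers in nuclear speckles, the bodies where splicing factors are stored. Its primary transcript is cut by RNase P, and the mature RNA ends in a stretch of A that folds with U-rich runs into a triple helix, which protects an end without a poly(A) tail. Neat1, transcribed from the neighbouring gene, is the scaffold of paraspeckles and has a short polyadenylated form and a long form whose end is made in the same way as that of Malat1. Kcnq1ot1 is transcribed from the opposite strand inside Kcnq1, is expressed from the paternal chromosome and represses genes of the imprinted domain around it.

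In GRCm38 with the GENCODE M21 annotation, Malat1 (ENSMUSG00000092341) lies on the minus strand of chromosome 19 from 5795690 to 5802672, with 4 annotated transcripts of 485 to 6983 bases. Neat1 (ENSMUSG00000092274) lies 22.04 kb away on the same strand, from 5824708 to 5845478, with 4 transcripts of 711 to 20771 bases. Kcnq1ot1 (ENSMUSG00000101609) lies on the minus strand of chromosome 7 from 143203458 to 143296549 and has a single annotated transcript of 93092 bases, which lies wholly inside Kcnq1, a gene of the plus strand. Malat1 and Neat1 are annotated as lincRNA and Kcnq1ot1 as antisense. The ends of Malat1 and Neat1 are shown because both hold an A-rich run of the kind that closes an RNA without a poly(A) tail. Both are written 5′ to 3′ on the transcribed strand, from chr19:5795982-5796081 and chr19:5824708-5824807 of GRCm38, and capitals mark the 11 bases at the 3′ end that are the same in both, while other shared runs stay in lower case.
Malat1: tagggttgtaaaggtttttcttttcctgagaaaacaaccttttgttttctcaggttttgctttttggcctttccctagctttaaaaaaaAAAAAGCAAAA
Neat1: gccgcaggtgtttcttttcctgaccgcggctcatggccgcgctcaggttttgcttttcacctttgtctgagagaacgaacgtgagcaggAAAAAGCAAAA
The run in capitals closes the longest annotated Neat1 transcript, whereas 292 annotated bases follow it in Malat1. T made up 39.0% of the bases in the Malat1 stretch and 26.0% in the Neat1 stretch. Whether the libraries were made by poly(A) selection is not stated in the sources used here, so the share of such RNAs that entered them is not known.

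Malat1 was the most abundant of the 3 in every library and by far the most variable. In pre-pro-B cells it was at 194 and 1475 FPKM with the WT and 418 and 914 FPKM with the Lf-/- genotype, and in pro-B cells at 35.4 FPKM with the WT and 1750 and 881 FPKM with the Lf-/- genotype. The WT pro-B library was the lowest and WT pre-pro-B replicate 1 the next lowest, and the 2 WT pre-pro-B values enclosed both Lf-/- pre-pro-B values. By rank from the highest gene of each library, Malat1 held place 313 and 52 (WT) and 178 and 73 (Lf-/-) in pre-pro-B cells, and place 1032 (WT) and 40 and 73 (Lf-/-) in pro-B cells.

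Neat1 was low and, in FPKM as deposited, close to constant. It was measured in pre-pro-B cells at 3.22 and 3.24 FPKM with the WT and 3.49 and 3.40 FPKM with the Lf-/- genotype, and in pro-B cells at 3.64 FPKM with the WT and 4.62 and 4.63 FPKM with the Lf-/- genotype. The Lf-/- pro-B libraries were the highest, and within each group with 2 libraries the 2 values differed by at most 1.02-fold. This closeness depends on the scaling, since with median-ratio scaling the Lf-/- pre-pro-B pair was at 3.83 and 2.59 FPKM. The place of Neat1 from the highest gene was between 4613 and 6495. Per length, Malat1 was 9.71 times as high as Neat1 in the WT pro-B library and 60.3 to 456 times as high in the other libraries.

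Kcnq1ot1 was low in every library. At the pre-pro-B stage its level was 0.207 and 0.299 FPKM for WT beside 0.265 and 0.0658 FPKM for Lf-/- mice, followed at the pro-B stage by 0.142 FPKM for WT beside 0.207 and 0.187 FPKM for Lf-/- mice. The lowest value was in Lf-/- pre-pro-B replicate 2, the library with the fewest genes above 0. Because the annotated transcript is so long, these values still rest on 186 to 329 fragments in the 6 libraries of known depth. No library reached the 1 FPKM required for testing, so 2 of the 3 lncRNAs, Malat1 and Neat1, passed the filter on low values.

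**Figure D1:**
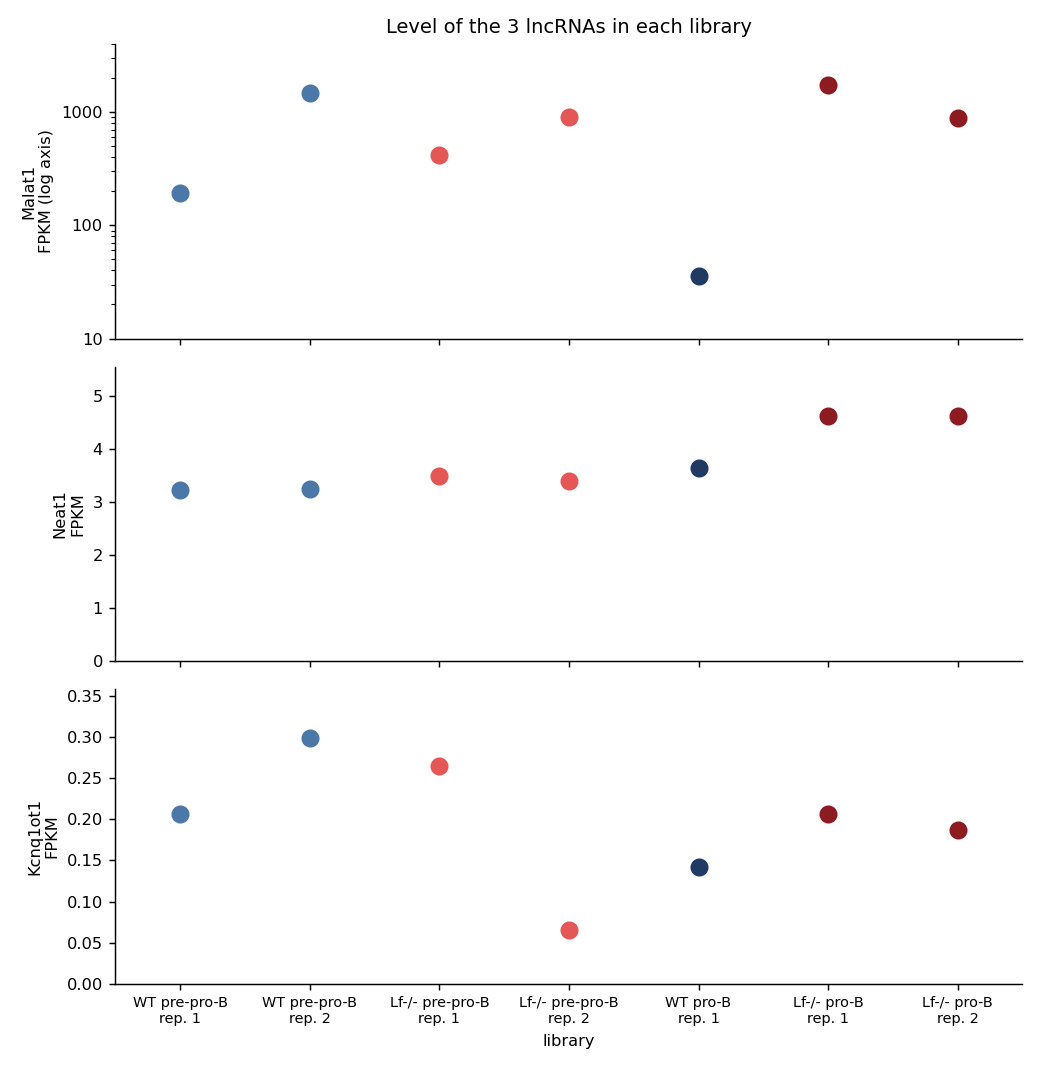
Level of Malat1 (top, log axis), Neat1 (middle) and Kcnq1ot1 (bottom) in FPKM in each of the 7 libraries, 1 point per library, coloured by group. Malat1 runs from 35.4 FPKM in WT pro-B to 1750 FPKM in Lf-/- pro-B replicate 1, while Neat1 stays between 3.22 and 4.63 FPKM.

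Over the 7 libraries Malat1 spanned a 49.5-fold range, which was 9.02-fold without the WT pro-B library. On the log2(FPKM + 1) scale, which is used for all differences here, the range was 5.59. For the 10793 genes that reached 1 FPKM in 2 or more libraries the median range was 1.37, and 0.778% of them had a wider range than Malat1. Among the 455 of these genes annotated as a kind of lncRNA, 1 had a wider range, CT009486.1, an antisense transcript listed at 0 in its lowest library and at 50.5 FPKM in its highest. Both ends of the Malat1 range are pro-B libraries, whose gap helped to choose it. Its place among all genes, among lncRNAs or among abundant genes is therefore no separate support.

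Among the 567 genes with a mean of at least 100 FPKM, 35 had a wider range, and 32 of them were variable segments of immunoglobulin genes. The other 3 were the histone genes Hist2h2aa2 and H2afj and AC157822.1. Neat1 stood at the other end, with a 1.44-fold range or 0.42 on the log2 scale, and 0.917% of genes had a narrower range. With median-ratio scaling Neat1 ran more widely, from 2.59 FPKM in Lf-/- pre-pro-B replicate 2 to 4.94 FPKM in WT pro-B. Kcnq1ot1 spanned 4.55-fold, and 2.11-fold without Lf-/- pre-pro-B replicate 2.

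**Figure D2:**
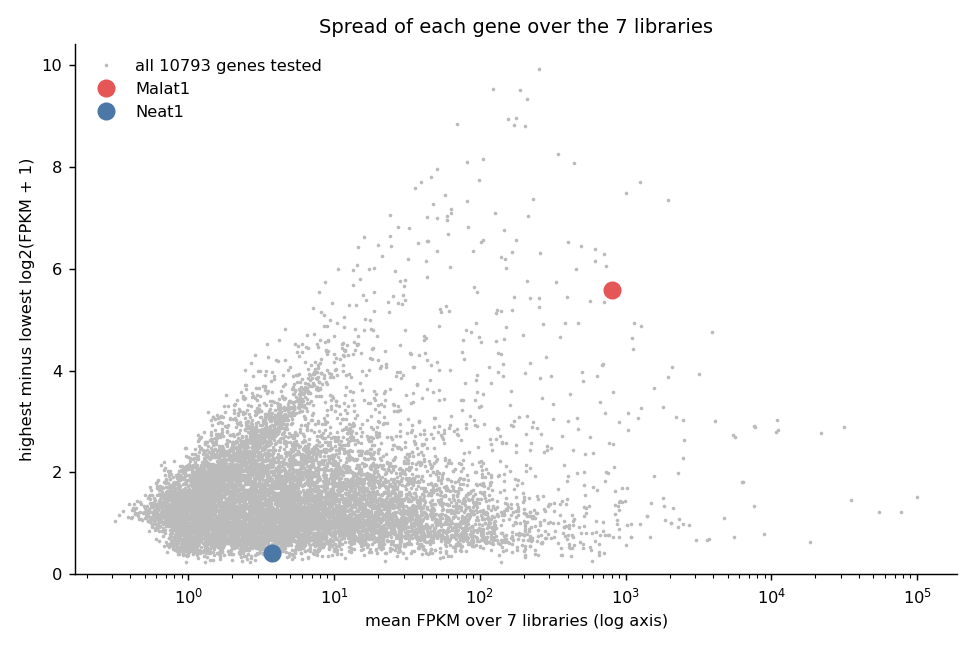
Highest minus lowest log2(FPKM + 1) over the 7 libraries against the mean FPKM (log axis) for the 10793 genes tested, 1 grey point per gene, with Malat1 in red and Neat1 in blue. Malat1 lies at a range of 5.59 among the abundant genes and Neat1 at 0.42 near the lower edge. The range of Malat1 is its gap between pro-B libraries, which helped to choose it.

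Within groups, the spread of Malat1 was widest in WT pre-pro-B. The pre-pro-B means were 835 ± 906 FPKM (SD, n = 2) for WT and 666 ± 351 FPKM (SD, n = 2) for Lf-/- mice, and the Lf-/- pro-B mean was 1315 ± 615 FPKM (SD, n = 2). The 2 libraries of a group differed 7.60-fold, 2.19-fold and 1.99-fold in that order. Expressed as log2 gaps, these were 2.92, 1.13 and 0.99, and the median gaps over all genes tested in the same pairs were 0.26, 0.88 and 0.32. Of all genes, a wider gap than that of Malat1 was found in 0.658% (WT) and 36.7% (Lf-/-) at the pre-pro-B stage and in 7.32% (Lf-/-) at the pro-B stage. The WT pre-pro-B gap is the one that chose Malat1, so its place among all genes is no separate support, and the Lf-/- pre-pro-B pair includes the library that stands apart.

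As a description of depth, not as a test, the fragments behind the WT pre-pro-B values can be given. At its longest transcript, Malat1 corresponded to 14912 fragments in WT pre-pro-B replicate 1, with an exact Poisson 95% interval of 191 to 197 FPKM. In WT pre-pro-B replicate 2 it corresponded to 121559 fragments, with an interval of 1467 to 1484 FPKM. At its shortest transcript the same values would rest on 1036 and 8443 fragments, with intervals of 182 to 206 FPKM and 1444 to 1507 FPKM. Such intervals cover counting error only, not the variation between samples.

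For Neat1, the pre-pro-B means were 3.23 ± 0.012 FPKM (SD, n = 2) for WT and 3.44 ± 0.058 FPKM (SD, n = 2) for Lf-/- mice, and the Lf-/- pro-B mean was 4.63 ± 0.0074 FPKM (SD, n = 2). The libraries of each pair were closer to each other than counting error, since the interval of the first Lf-/- pro-B value at the longest transcript was 4.35 to 4.91 FPKM. These SDs therefore understate the error of Neat1. In order of level came both pre-pro-B groups (WT below Lf-/-), then WT pro-B and last Lf-/- pro-B. Counting intervals at the longest transcript overlapped between neighbours in this order up to WT pro-B (3.43 to 3.87 FPKM), a single library whose place above or below Lf-/- pro-B changes with the scaling. At the shortest transcript Neat1 would rest on 25 to 50 fragments, and the intervals of WT pro-B (2.57 to 5.02 FPKM) and Lf-/- pro-B replicate 1 (3.24 to 6.40 FPKM) overlapped. Kcnq1ot1 had pre-pro-B means of 0.253 ± 0.065 FPKM (SD, n = 2) for WT and 0.165 ± 0.141 FPKM (SD, n = 2) for Lf-/- mice, and an Lf-/- pro-B mean of 0.197 ± 0.014 FPKM (SD, n = 2). Its Lf-/- pre-pro-B pair enclosed all 3 pro-B values.

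Other measures of the libraries differed alongside Malat1. The WT pre-pro-B pair had nearly the same share of FPKM in neutrophil granule genes (39.0% in both) and in early B lineage genes (0.120% and 0.124%), but the erythroid genes, which include those of haemoglobin, took 7.02% in replicate 1, where Malat1 was low, and 1.94% in replicate 2. Mitochondrially encoded transcripts took 1.67% and 1.08%. The erythroid share was 3.56% and 15.3% in the Lf-/- pre-pro-B pair, 4.96% in WT pro-B, and 10.3% and 5.22% in the Lf-/- pro-B pair. The summed level of all 10 erythroid genes, none at 0 in any library, was at the pre-pro-B stage 15009 to 56044 FPKM for WT and 29699 to 105949 FPKM for Lf-/- mice, and at the pro-B stage 41405 FPKM for WT and 38210 to 75743 FPKM for Lf-/- mice. Their part in the spread of Malat1 was not tested.

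A gene annotated inside Malat1 varied in the other direction. Gm37376 (ENSMUSG00000102349) is a 453-base gene of the class TEC, whose existence awaits experimental evidence, on the plus strand of chromosome 19, from 5801941 to 5802393, and lies wholly within Malat1. Its sequence is the reverse complement of positions 280 to 732 of the longest Malat1 transcript, counted from its 5′ end, without a mismatch, which is 6.49% of that transcript. The boundary is shown because every base in capitals, the first 80 of the shared stretch, belongs to both genes and can be assigned to either of them only by strand. It is written 5′ to 3′ on the Malat1 strand, chr19:5802314-5802433 of GRCm38.
Malat1 into Gm37376: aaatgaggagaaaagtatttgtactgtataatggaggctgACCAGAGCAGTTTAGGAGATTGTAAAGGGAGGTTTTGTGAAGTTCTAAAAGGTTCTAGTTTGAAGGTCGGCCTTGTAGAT
How strand was treated in counting is not stated, so reads of Gm37376 and of Malat1 cannot be told apart in this stretch.

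In pre-pro-B cells Gm37376 was at 268 and 76.8 FPKM with the WT and 108 and 8.66 FPKM with the Lf-/- genotype, and in pro-B cells at 336 FPKM with the WT and 61.2 and 45.1 FPKM with the Lf-/- genotype. The 3 libraries with the lowest Malat1 had the 3 highest Gm37376 values, in the opposite order. The range of Gm37376 was 38.8-fold, and 7.44-fold without Lf-/- pre-pro-B replicate 2. Over the 7 libraries the correlation of the 2 genes on the log2 scale was −0.71 (Pearson and Spearman alike), given as a description of libraries that differ in depth and cell content. Malat1 and Neat1, by comparison, had a Pearson correlation of 0.31 and a Spearman correlation of 0.14, and Malat1 and Kcnq1ot1 had 0.24 and 0.18.

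Adding the 2 genes after weighting each FPKM by transcript length gives a measure of the fragments at the locus, if each was counted once in 1 of the 2 genes. How shared fragments were counted is not given in the sources used here. With the longest Malat1 transcript the sum still ranged 30.7-fold over the 7 libraries, and 8.29-fold without WT pro-B. With the shortest Malat1 transcript, of 485 bases, it ranged 5.18-fold, and 4.07-fold without WT pro-B. Which length was used to make the deposited values is not given in the sources used here. Gm37376 made up 38.1% of the sum in WT pro-B at the longest transcript and 89.9% at the shortest, against 0.226% and 3.16% in Lf-/- pro-B replicate 1. The part of this overlap in the spread of Malat1 was not tested.

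**Figure D3:**
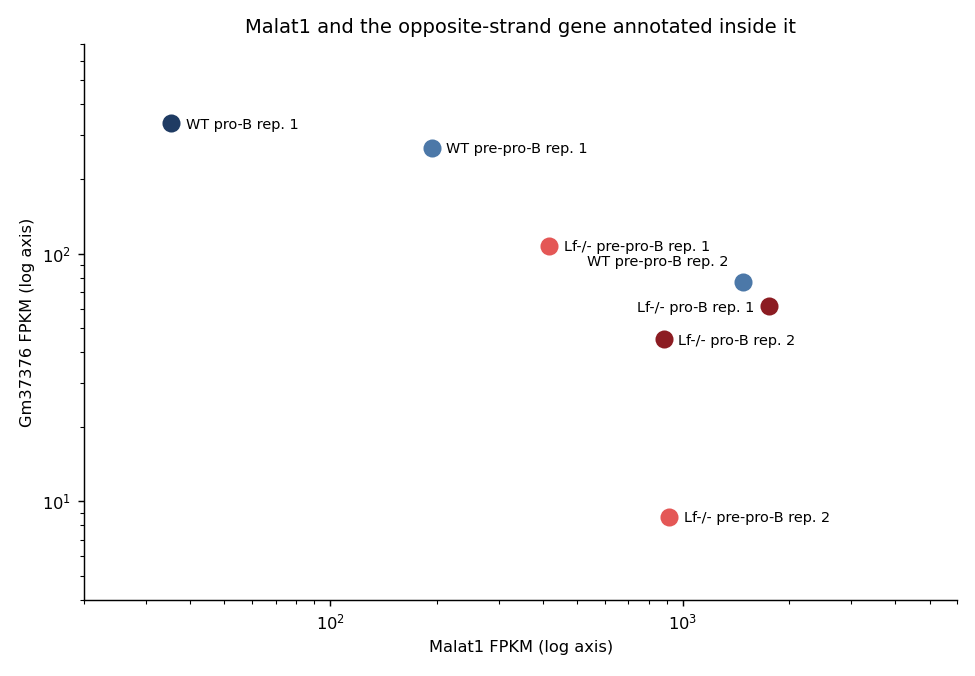
Gm37376 against Malat1 in FPKM, both on log axes, 1 labelled point per library coloured by group. WT pro-B (35.4 FPKM of Malat1, 336 FPKM of Gm37376) and WT pre-pro-B replicate 1 (194 and 268 FPKM) are at the upper left, and Lf-/- pre-pro-B replicate 2 is lowest for Gm37376 at 8.66 FPKM.

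Expressed coding genes within 50 kb of Malat1 and Neat1 ranged far less than Malat1, as did most genes. Malat1 and Neat1 each had 11 neighbours, which included each other. Frmd8, whose product holds the sheddase regulator iRhom at the cell surface, ranged 2.27-fold, from 3.30 to 7.48 FPKM. Slc25a45, of the mitochondrial carrier family, ranged 2.20-fold, from 2.69 to 5.94 FPKM. Frmd8 was highest in both Lf-/- pro-B libraries, as was Neat1. Slc25a45 was highest in Lf-/- pro-B replicate 1, as was Malat1, but only just, since Lf-/- pre-pro-B replicate 2 was at 5.93 FPKM. It was lowest in WT pro-B.

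Short features annotated inside Neat1 were uneven where Neat1 itself was not. Gm27505, a misc_RNA whose 110 bases lie within Neat1, reached 11.0 and 10.3 FPKM in the Lf-/- pro-B pair and 4.30 FPKM in WT pre-pro-B replicate 2, and was at most 0.182 FPKM in the other 4 libraries, being listed at 0 in 1 of them. Gm28006, of 122 bases within Neat1, reached 7.89 FPKM in the second Lf-/- pre-pro-B library and at most 0.196 FPKM in the other libraries. Features this short rest on few fragments and share their bases with Neat1, so their values are uncertain. Among the other neighbours of both lncRNAs, Ltbp3, Tigd3, Frmd8os, Gm27533, Gm27694 and Gm27702 reached at most 1.87 FPKM.

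Around Kcnq1ot1 there was almost no other expression. Of 8 annotated neighbours 5 were listed at 0 in every library (4 of them, Gm27395, Gm27389, Gm27803 and Gm27539, lie inside it, and the other is 4933417O13Rik), and Gm37364 and Gm38095 reached at most 0.122 FPKM. Kcnq1 itself, which encodes a potassium channel subunit, was listed at 0 in 6 libraries and at 0.0012 FPKM in Lf-/- pro-B replicate 2, so Kcnq1ot1 was measured with hardly any signal from its host gene.

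In pre-pro-B cells neither tested lncRNA passed the test between genotypes. In simulated data with the spread of these libraries, 0% of genes changed by 2 on the log2 scale passed it either. With limma over 9720 genes, no gene passed an adjusted p of 0.05 (percent called 0), and 284 had an unadjusted p under 0.05, 194 higher (2%) and 90 lower (0.926%) in Lf-/-. Malat1 was 0.21 higher on the log2 scale in Lf-/- with an SE of 1.01, which includes the WT gap that chose it. The direction rests on single libraries, as the difference was −1.25 without WT pre-pro-B replicate 1, 1.67 without WT pre-pro-B replicate 2 and −0.36 without Lf-/- pre-pro-B replicate 2. Neat1 was 0.07 higher with an SE of 0.44 (limma, adjusted p = 0.981), and it was 0.056 lower with median-ratio scaling. That SE leans on the spread of all genes, as the 2 libraries of a group differed in Neat1 by only 0.0059 (WT) and 0.027 (Lf-/-). Both Lf-/- values of Neat1 were above both WT values, as for 15.5% of all genes tested. Kcnq1ot1 was 0.11 lower with an SE of 0.16 when no filter on low values was used (limma, adjusted p = 0.882).

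From pre-pro-B to pro-B cells of Lf-/- mice, both lncRNAs had higher means at the later stage, again without passing the test. No gene of 10311 passed an adjusted p of 0.05 by limma (percent called 0), and 351 had an unadjusted p under 0.05, 282 higher (2.73%) and 69 lower (0.669%) in pro-B. Malat1 was 1.01 higher in pro-B with an SE of 0.60, against a median over all genes of 0.14, and its groups overlapped, since 881 FPKM in pro-B lay below 914 FPKM in pre-pro-B. Leaving out each library in turn, the difference was between 0.44 and 1.57, lowest when Lf-/- pre-pro-B replicate 1 was left out and highest when replicate 2 was. Neat1 was 0.34 higher with an SE of 0.50 (limma, adjusted p = 0.9998). Its groups did not overlap, as for 26.2% of genes in that direction. Kcnq1ot1 was 0.04 higher with an SE of 0.14 without a filter (limma, adjusted p = 0.943). Of the WT stages only values can be given, with 1 pro-B library: Malat1 went from 194 and 1475 to 35.4 FPKM, Neat1 from 3.22 and 3.24 to 3.64 FPKM and Kcnq1ot1 from 0.207 and 0.299 to 0.142 FPKM.

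In pro-B cells the comparison rests on 1 WT library and has no test. Malat1 was 49.5-fold and 24.9-fold higher in the 2 Lf-/- libraries than in the WT library. The mean log2 difference was 5.09, and 1 of 10793 genes had a larger one. This gap is what chose the gene. On the log2(FPKM + 1) scale, where a low gene needs more than a 2-fold ratio to reach 1, a difference of at least 1 that both Lf-/- libraries shared in direction was seen in 1341 genes that were higher (12.4%) and 121 that were lower (1.12%), and the median over all genes was 0.48, so that most genes were somewhat higher in Lf-/- pro-B in FPKM as deposited. With median-ratio scaling, which moves that median to 0.0059, the difference of Malat1 was 4.46.

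Neat1 was 1.27-fold higher in both Lf-/- pro-B libraries, or 0.28 on the log2 scale, which is below the median of all genes. Of all genes 69.9% had a larger difference, and both Lf-/- values were above the WT value in 75.3% and below it in 6.9%. With median-ratio scaling Neat1 was 0.25 lower in Lf-/-, and the WT library was then the highest of the 7. Kcnq1ot1 was 1.46-fold and 1.32-fold higher in Lf-/-. Of the 3 lncRNAs, Malat1 was thus the only one whose difference in pro-B cells was at least 2-fold.

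The overlapping gene moved against Malat1 in this comparison as well. Gm37376 was at 0.182 and 0.134 times its WT level in the Lf-/- pro-B libraries. The length-weighted sum of the 2 genes was 30.7-fold and 15.5-fold higher in Lf-/- pro-B with the longest Malat1 transcript and 5.18-fold and 2.65-fold higher with the shortest. Marker genes differed too. Neutrophil granule genes took 53.1% of the FPKM in WT pro-B against 34.7% and 39.6% in Lf-/- pro-B, and their sum was 443288 FPKM against 254913 to 289978 FPKM. The members did not all go this way. Of the 18 tested, 5 were lower in Lf-/- by at least 1, Ltf among them, against 1.12% of all genes. Another 3 were higher by at least 1, against 12.4% of all genes. The median of the list was −0.66, against 0.48 over all genes. The sum of the early B lineage genes was 446 FPKM in WT pro-B against 1980 to 3547 FPKM in Lf-/- pro-B. Of the 19 tested, 16 were higher in Lf-/- by at least 1, against 12.4% of all genes. Their median difference was 2.17, against 0.48 over all genes. Of the T and NK cell genes, 8 of 11 tested were higher in Lf-/- by at least 1, against the same 12.4%, with a median of 1.29 against 0.48 over all genes. Their sum was 910 FPKM in WT pro-B against 461 to 1026 FPKM in Lf-/- pro-B. Most of that sum was Nkg7, at 885 FPKM with the WT and 357 and 919 FPKM with the Lf-/- genotype. In the list, 6 of the 12 were at 0 in some library (Cd3g, Cd4, Trac, Zap70, Klrb1c and Ncr1). With the granule genes left out of each library's total, the difference of Malat1 was 4.86 and that of Neat1 0.089. Beyond this rescaling, the part of the marker genes in the difference of Malat1 was not tested.

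**Figure D4:**
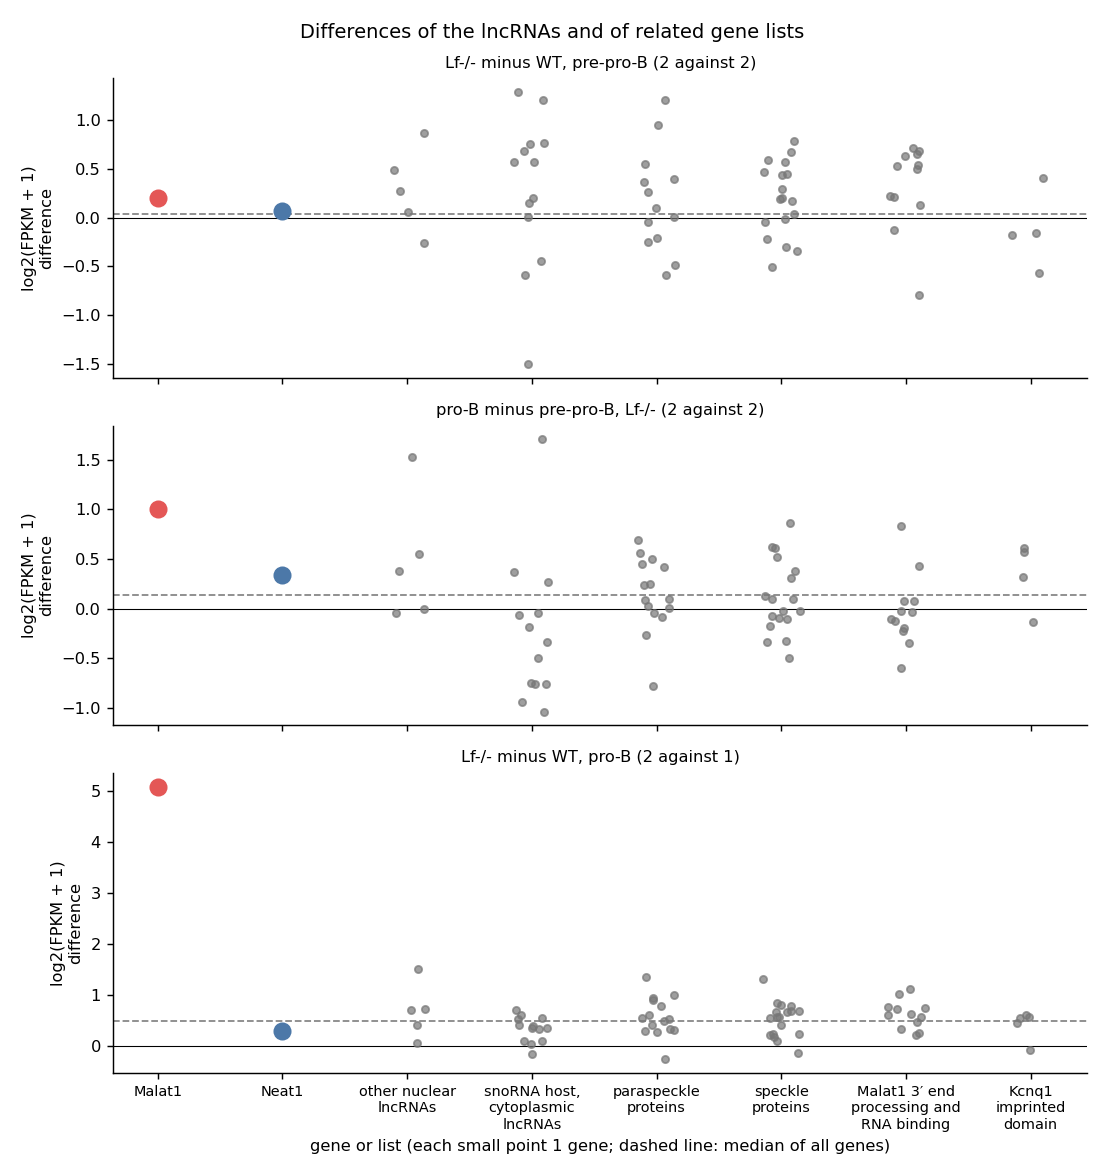
Difference in log2(FPKM + 1) for Malat1 (red), Neat1 (blue) and the tested genes of 6 lists (grey, 1 point per gene) between genotypes in pre-pro-B, between stages in Lf-/- and between genotypes in pro-B. The dashed line is the median of all genes tested. Malat1 in pro-B, at 5.09, lies above every listed gene, the highest of which is Lncpint at 1.51. That gap helped to choose Malat1.

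Other nuclear lncRNAs were mostly too low to test. Of 19 listed, 5 passed the filter, namely Xist and Tsix of X inactivation, Lncpint, Dleu2 and the imprinted Peg13, whereas Hotair and Miat were listed at 0 in every library. In pre-pro-B none of the 5 passed the test, 4 were higher in Lf-/- and the median difference was 0.27, against 0.035 over all genes. The median was 0.38 between Lf-/- stages and 0.70 in pro-B, against 0.14 and 0.48 over all genes. In pro-B 1 of the 5 was higher in Lf-/- by at least 1 in log2(FPKM + 1), Lncpint, at 1.51, while Peg13, at 0.585 FPKM with the WT and 1.26 and 1.92 FPKM with the Lf-/- genotype, stayed under it because of the pseudocount.

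Lncpint, a lncRNA induced by p53, was the most variable of these. At the pre-pro-B stage its level was 2.44 and 0.355 FPKM for WT beside 6.66 and 0.201 FPKM for Lf-/- mice, followed at the pro-B stage by 2.07 FPKM for WT beside 11.3 and 5.21 FPKM for Lf-/- mice. As a ratio its 56.3-fold range exceeded that of Malat1, but it starts from 0.201 FPKM and is 3.36 on the log2(FPKM + 1) scale. In the WT pre-pro-B pair it was high where Malat1 was low. Xist, the RNA that coats the inactive X chromosome, ranged 2.36-fold, from 4.07 FPKM in WT pre-pro-B replicate 2 to 9.60 FPKM in Lf-/- pro-B replicate 1. Tsix, its antisense partner, ranged 7.44-fold, but without strand its reads cannot be told apart from those of Xist.

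The lncRNAs that host snoRNAs or act in the cytoplasm were better expressed, with 13 genes tested, and none passed the adjusted test. Their median difference was 0.57 in pre-pro-B, −0.33 between Lf-/- stages and 0.35 in pro-B, against 0.035, 0.14 and 0.48 over all genes. Some of them, though not all, were high only in Lf-/- pre-pro-B replicate 2, the library that stands apart. In replicates 1 and 2 of that group Zfas1 was at 3.85 and 13.9 FPKM and Snhg1 at 2.72 and 10.2 FPKM. In pre-pro-B cells Snhg15 was at 12.6 and 11.6 FPKM with the WT against 31.7 and 26.8 FPKM with the Lf-/- genotype, a difference of 1.203 (limma, adjusted p = 0.941). The largest difference of the list in pre-pro-B, −1.50 for Epb41l4aos, came from 0 FPKM in Lf-/- pre-pro-B replicate 2 against 17.8 FPKM in replicate 1. In pro-B none of the 13 tested genes reached a difference of 1 in log2(FPKM + 1).

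Proteins that work with the 3 lncRNAs, like nearly all genes, did not show the spread of Malat1. None of the 16 paraspeckle proteins, 18 speckle proteins or 16 genes of Malat1 end processing and RNA binding had a range as wide. The widest were 2.13, 1.99 and 2.28. Malat1 was chosen for its spread, and only 0.778% of all genes had a wider range. A list without a wider gene is therefore no result about these proteins. None of them passed the adjusted test in either comparison. Nono and Sfpq, which bind Neat1 and hold paraspeckles together, ranged 2.28-fold and 2.37-fold. Pspc1, the third protein of that family, was lowest in Lf-/- pre-pro-B replicate 2 at 0.473 FPKM and highest in Lf-/- pro-B replicate 1 at 2.33 FPKM. Smarca4, the chromatin remodelling ATPase that has also been linked to paraspeckles, was in pre-pro-B cells at 15.4 and 10.3 FPKM with the WT and 48.6 and 18.9 FPKM with the Lf-/- genotype, and in pro-B cells at 12.1 FPKM with the WT and 47.5 and 22.05 FPKM with the Lf-/- genotype. It was higher in all 4 Lf-/- libraries than in all 3 WT libraries, but other genes separated at each stage too. Both Lf-/- values lay above both WT values for 15.5% of genes tested at the earlier stage. At the later stage 75.3% had both Lf-/- values above the lone WT value. The share that separates over all 7 libraries was not counted. The difference of Smarca4 in pre-pro-B, 1.21, did not pass the test (limma, adjusted p = 0.941).

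For the paraspeckle proteins the median differences were 0.099 in pre-pro-B, 0.098 between stages and 0.51 in pro-B, where 1 of 15 was higher by at least 1, Smarca4 at 1.36, with Cpsf6 at 0.98 and Hnrnph3 at 0.94 just under it. For the speckle proteins they were 0.19, 0.033 and 0.55, and 1 of 18 was higher by at least 1 in pro-B, Rnps1, a component of the exon junction complex, at 1.30. Srrm2 and Son, the scaffolds of speckles, differed by 0.095 and −0.15 in pro-B. For the end processing list they were 0.51, −0.071 and 0.61, and 2 of 12 were higher by at least 1 in pro-B, Pop5, a subunit of RNase P, at 1.01 and Rpp25l, a relative of another subunit, at 1.12. Elac2, which cuts the other end of the small RNA released from Malat1, differed by 0.57. In Lf-/- pre-pro-B replicates 1 and 2 Elac2 was at 1.90 and 12.5 FPKM and Pop5 at 4.64 and 21.5 FPKM, and replicate 2 is the library that stands apart. Over all genes the medians were 0.035 in pre-pro-B, 0.14 between stages and 0.48 in pro-B. The pro-B medians of these lists lie near that of all genes, and the shares higher by at least 1 can be read against the 12.4% of all genes.

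Of the 12 genes of the Kcnq1 domain, where Kcnq1ot1 is known to act, 4 could be tested in pre-pro-B, and none passed. Cd81, which encodes a tetraspanin of the cell surface, was the highest at 55.1 to 92.1 FPKM. Tspan32 differed by −0.57, Nap1l4 by 0.41, Cd81 by −0.18 and Tssc4 by −0.16 between genotypes in pre-pro-B. In pro-B they differed by 0.45, 0.54, 0.57 and 0.60, and Ascl2, which passed the filter of 7 libraries only, by −0.10. Cdkn1c, the growth inhibitor that Kcnq1ot1 represses, was between 0.102 FPKM in WT pro-B and 1.33 FPKM in Lf-/- pre-pro-B replicate 2, the libraries with the second lowest and the lowest Kcnq1ot1. Phlda2, Slc22a18, Trpm5, Osbpl5 and Th stayed under 1 FPKM in every library.

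The 5 genes whose level was most like that of Malat1 were all lowest in WT pro-B, as Malat1 was, but varied less. They were picked by that likeness, so the shared lowest library largely follows from the choice. By Pearson's correlation of log2 values among 4854 genes with a mean of at least 5 FPKM, the closest were 1700097N02Rik, a lncRNA from a bidirectional promoter, at 0.980, Zfp36 at 0.966, BC017643 at 0.965, Gosr2 at 0.960 and Ddx47 at 0.942. Zfp36, which encodes the mRNA decay factor tristetraprolin, had at the pre-pro-B stage 54.3 and 121 FPKM for WT beside 70.3 and 147 FPKM for Lf-/- mice, followed at the pro-B stage by 31.2 FPKM for WT beside 140 and 123 FPKM for Lf-/- mice. Like Malat1 it was higher in replicate 2 of both pre-pro-B groups. Its range was 4.70-fold, the widest of the 5, and that of Gosr2 was 1.95-fold.

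For Neat1, the closest were Sf3b2, a splicing factor subunit, at 0.957, Ctsl at 0.925, Ltb at 0.918, Vti1b at 0.906 and Ccl5 at 0.903. All 5 were highest in the 2 Lf-/- pro-B libraries. Sf3b2, also on chromosome 19, ranged 1.47-fold, close to the 1.44-fold of Neat1, while the lymphotoxin gene Ltb ranged 24.2-fold. For Kcnq1ot1 they were Rps15a-ps6 at 0.963, AI506816, Rhob, Igkv6-13 and Borcs8 at 0.920, all of them lowest in Lf-/- pre-pro-B replicate 2 and highest in WT pre-pro-B replicate 2. The correlations rest on 7 libraries that differ in depth and cell content and are given as a description. Since the genes were picked by them, sharing the highest or lowest libraries of a lncRNA is no separate support.

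**Figure D5:**
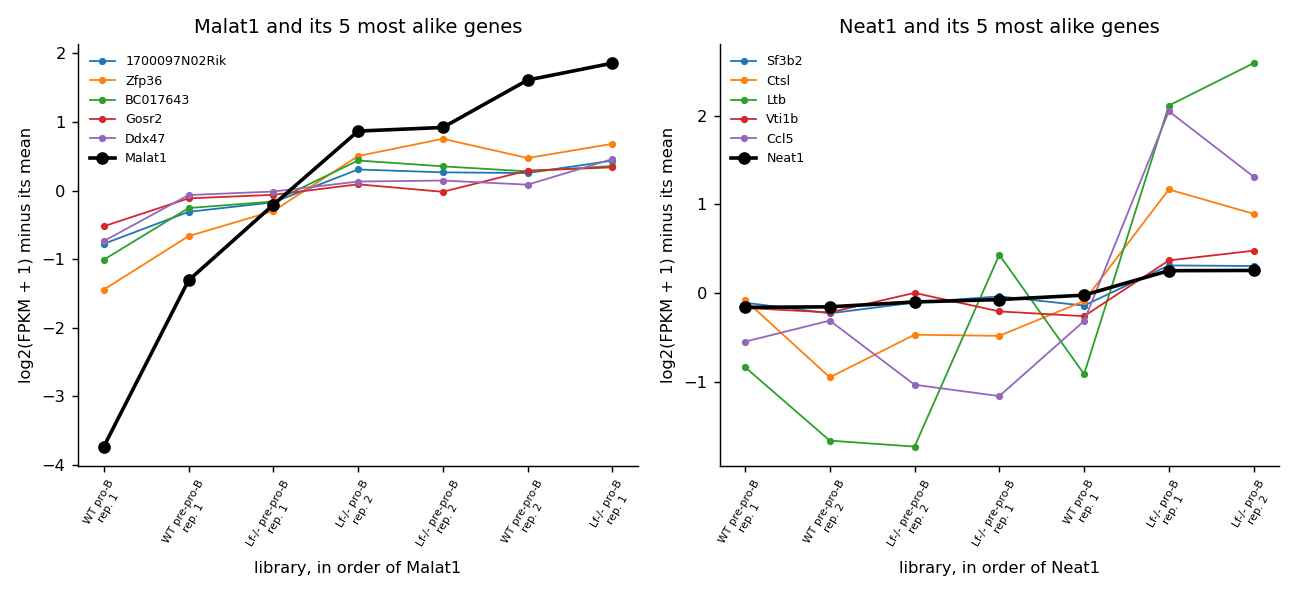
Level in log2(FPKM + 1), minus the mean over the 7 libraries, of Malat1 (left, black) and Neat1 (right, black) and the 5 genes most alike each, with the libraries ordered by Malat1 or Neat1. The genes most like Malat1 rise with it over a smaller range, at most 4.70-fold against 49.5-fold, and those most like Neat1 are highest in the 2 Lf-/- pro-B libraries.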

How the data were processed

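RNA of sorted cells was extracted with the mirVana kit and sequenced by the authors, who deposited one FPKM value per gene and library (fragments per kilobase and per 1000000 fragments). The unit was inferred from the values. The submitters' processing notes name TopHat, Cufflinks, HTSeq, DESeq and GRCm38, without role or version. Strand setting and poly(A) selection are not given in the sources used here. FPKM are relative, so an abundant gene lowers all others of its library.

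The members and lists were chosen with earlier results of these data known. Genes were matched by identifier to GENCODE M21 on GRCm38 (52403 of 52550), which supplied positions and sequences. Depth was read from the steps of FPKM times length in long single-transcript genes. It was kept where the wider set of at least 800 bases gave nearly the same depth. Groups were taken from the labels. Pre-pro-B genotypes and Lf-/- stages were fitted with limma 3.58.1 (R 4.3.3, trend, two-sided, Benjamini-Hochberg adjustment over all genes tested) on log2(FPKM + 1) for genes that reached 1 FPKM in 2 or more of the 4 libraries; pro-B genotypes were compared without a test for genes that did so in 2 or more of the 7. The pseudocount of 1 understates changes of low genes. Python 3.11.15 was used for the other steps.

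In simulated data with 200 of 9720 genes changed by 2 on the log2 scale and with the spread seen in pre-pro-B, 0% passed the adjusted test and 99.5% had the right direction. Alternatives were 1 fit of all 7 libraries, the replicate block, median-ratio scaling, no filter, a filter in every library, a pseudocount of 0.1, totals without neutrophil granule genes, and leaving out each library.

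Named were the 3 lncRNAs, Ltf, annotated genes within 50 kb, at most the 4 listed genes that differed most in a comparison, all of the Kcnq1 domain and the 5 most correlated genes. Other genes, such as Xist, Nono, Sfpq, Pspc1, Srrm2, Son, Elac2, Hotair, Miat, Rag1, Rag2, Bank1, the T and NK cell genes and those with a wider range than Malat1, were chosen after their values were seen. Results that rest on some individual genes are not reported here.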

Additional observations from a re-analysis of the deposited data

How the results depend on the processing

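Genes past the adjusted threshold numbered 0 in pre-pro-B and 0 between Lf-/- stages. With the replicate number as a block they were 65 and 84, but equal numbers mark no shared animal or day in the labels, and deviations of same-numbered libraries hardly correlated (0.039 and −0.012); neither Malat1 nor Neat1 passed under the block. Leaving out 1 library gave 0 to 2856 genes in pre-pro-B and 11 to 2329 between stages, the highest in both without Lf-/- pre-pro-B replicate 1, which leaves the library of fewest genes alone in its group and assumes that it varies like the others. At an unadjusted p under 0.05, the pre-pro-B count of 284 became 518 with all 7 libraries, 532 with the block, 649 with no filter and 142 to 4580 without 1 library. Between stages the count of 351 became 600, 701, 746 and 135 to 4182 in that order, 143 with the filter in every library and 171 with a pseudocount of 0.1. In pro-B the 1462 genes with a difference of at least 1 became 823 with median-ratio scaling (432 higher, 391 lower) and 2853 with a pseudocount of 0.1. Malat1 reversed in pre-pro-B without WT replicate 1 (−1.25) and without Lf-/- replicate 2 (−0.36), reached 1.67 without WT replicate 2, and stayed between 4.46 and 5.59 in pro-B. Neat1 reversed in pre-pro-B with median-ratio scaling (−0.056) and with granule genes left out (−0.016), and in pro-B with median-ratio scaling (−0.25), where a pseudocount of 0.1 gave 0.34 and leaving out granule genes 0.089. Apart from the shared numbers and the lone library, the cause of these changes was not tested. Neither gene passed the adjusted test under any of the 11 alternatives of each comparison (adjusted p of Neat1 0.877 to 0.99996 in pre-pro-B and 0.452 to 0.99997 between stages).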
